A study of Mus musculus with 80 samples.

Results

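The genes described are 41 components of blood coagulation and of the complement system, chosen by gene symbol from the count table of a study of mouse liver during fasting. All 41 were found among the 20105 genes of the table, and all 41 passed the filter on low counts in every fit. The RNA came from nuclei of female mice of 2 lines, HEP-INTACT with a purification tag on hepatocyte nuclei and MAC-INTACT with the tag on macrophage nuclei. Food was withdrawn at zeitgeber time 12, the start of the active phase, and livers were taken 3, 8, 16 and 24 h later, at zeitgeber times 15, 20, 4 and 12. Ad libitum fed mice of the same line were taken at each of these times, so the 8 groups per line are fed and fasted at 4 times, with 4 libraries of tagged nuclei in each. A further 16 libraries, 1 per line and condition, held unpurified nuclei of whole liver from pools of 4 mice. All mice carried the tag of their line, and the labels used here give neither the driver of the tag, nor the strain or the age. They do not say either whether each tagged library came from 1 mouse, so p-values measure only the spread between these libraries, which may be technical. Each tagged library has its own number in its label, and the labels do not say whether the pools hold the same mice. Pools and tagged libraries may therefore not be independent.

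Coagulation is a chain of serine proteases and cofactors that ends with thrombin, which cuts fibrinogen into fibrin. Anticoagulant proteins and serpins hold it back, and plasmin dissolves the clot. Complement is a second plasma protease cascade, started by C1q bound to antibody (classical pathway), by mannose-binding lectins (lectin pathway) or by spontaneous C3 activation (alternative pathway), and ended by the terminal components C5 to C9, which form a pore in membranes. Hepatocytes secrete most of these proteins into plasma, while C1q and properdin are known as products of myeloid cells. The members are ordered below by these roles.

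Library totals were 12597786 to 30089561 counts for tagged hepatocyte nuclei, 14968505 to 44694933 for tagged macrophage nuclei and 13246494 to 35514304 for the pools. The 12 macrophage markers (Clec4f, Vsig4 and others) summed to a median of 5713 CPM (each count as a share of its library's scaled total) in macrophage nuclei, 54.0 in hepatocyte nuclei and 299 and 304 in the pools of the hepatocyte and macrophage lines. All 12 were higher in macrophage nuclei than in the pools of that line and 11 were lower in hepatocyte nuclei, with no macrophage marker at a median of 0. The 12 hepatocyte markers (Alb, Apob and others) summed to a median of 17221 CPM in hepatocyte nuclei and still to 7893 CPM, with a range of 4320 to 24044, in macrophage nuclei, where none had a median of 0 and Ass1 was at 0 in 1 library. These sums differed between groups of macrophage libraries, and they are given beside the results they touch. The 10 sinusoidal endothelial markers summed to a median of 755 CPM in macrophage nuclei and 755 CPM in the pools of that line. In hepatocyte nuclei the endothelial sum was 153 CPM. Single endothelial markers went both ways between macrophage nuclei and these pools.

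The 5 promoters shown are examples from the members described: C1qc, found in macrophage nuclei, C9, with the largest falls, and F9 and Pros1, which were higher early in the fast. The last is F11, which was higher early and lower later. Each line gives the 250 bases before the transcription start, 5′ to 3′ on the gene's strand, from RefSeq on GRCm38.p6. Capitals mark exact matches, on either strand, to one of 6 motifs: HNF1 GTTAATNAT, C/EBP TTGCNNAA, HNF4 TGNACTTTG, STAT TTCNNNGAA, PU.1 GAGGAAGT and glucocorticoid receptor ACANNNTGT.
C1qc (chr4:136892915-136893164, minus strand): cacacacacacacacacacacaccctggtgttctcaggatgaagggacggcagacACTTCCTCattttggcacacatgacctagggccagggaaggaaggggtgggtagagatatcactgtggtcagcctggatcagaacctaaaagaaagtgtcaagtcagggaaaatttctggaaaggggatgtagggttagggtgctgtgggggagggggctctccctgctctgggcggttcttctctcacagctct
C9 (chr15:6445096-6445345, plus strand): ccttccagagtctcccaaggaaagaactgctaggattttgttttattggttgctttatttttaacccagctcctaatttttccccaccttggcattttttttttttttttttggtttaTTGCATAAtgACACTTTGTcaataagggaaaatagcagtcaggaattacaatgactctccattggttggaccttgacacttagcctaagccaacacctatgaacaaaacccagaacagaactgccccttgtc
F9 (chrX:59999214-59999463, plus strand): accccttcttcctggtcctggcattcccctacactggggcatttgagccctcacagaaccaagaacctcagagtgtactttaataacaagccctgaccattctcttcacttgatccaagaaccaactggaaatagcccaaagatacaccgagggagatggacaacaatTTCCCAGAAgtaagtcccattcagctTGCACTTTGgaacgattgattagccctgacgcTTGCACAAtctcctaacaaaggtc
Pros1 (chr16:62854057-62854306, plus strand): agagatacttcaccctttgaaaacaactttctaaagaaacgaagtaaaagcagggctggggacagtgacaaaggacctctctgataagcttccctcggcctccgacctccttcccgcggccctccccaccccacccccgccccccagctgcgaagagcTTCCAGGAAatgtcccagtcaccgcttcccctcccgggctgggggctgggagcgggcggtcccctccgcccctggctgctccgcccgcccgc
F11 (chr8:45262032-45262281, minus strand): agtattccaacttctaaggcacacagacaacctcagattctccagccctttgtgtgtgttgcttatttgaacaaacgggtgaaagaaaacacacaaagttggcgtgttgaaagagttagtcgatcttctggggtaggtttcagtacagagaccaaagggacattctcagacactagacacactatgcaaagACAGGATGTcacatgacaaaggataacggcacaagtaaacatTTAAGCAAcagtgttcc

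The C1qc promoter held a PU.1 match from base -195 to -188, counted from the transcription start. No other listed member promoter held a PU.1 match, and this includes those of C1qb, C6, Cfp and F13a1. The C9 promoter held a C/EBP match at -132 to -125 and a glucocorticoid receptor match at -122 to -114. In F9 a STAT match lay at -82 to -74, an HNF4 match at -56 to -48 and a C/EBP match at -24 to -17. Pros1 held a STAT match at -92 to -84, and F11 a glucocorticoid receptor match at -59 to -51 and a C/EBP match at -17 to -10. Promoters were listed for 32 of the 41 members, 34 sequences in all with 2 each for C8g and F13a1. Of these 34, 4 held an HNF1 match (11.76%, against 0.74% of all 32851 promoters), 7 a C/EBP match (20.59% against 9.56%) and 6 a STAT match (17.65% against 7.02%). Glucocorticoid receptor matches were in 4 (11.76% against 5.84%), and HNF4 and PU.1 matches in 1 each (2.94%, against 1.19% and 2.44%). The 4 with HNF1 matches were C4bp, F13b, Fga and Hc. No printed matches overlap each other, and a match describes letters only and does not show binding. For 26 of the 34 promoters the first 25 transcribed bases were found in a transcript of the gene. As counted, C9 starts at chr15:6445333 and Pros1 at chr16:62854334, which differ from the starts used here. Base positions thus depend on the start chosen.

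The RNA of 6 members was concentrated in macrophage nuclei: the 3 chains of C1q (C1qa, C1qb, C1qc), properdin (Cfp), the terminal component C6 and the A subunit of factor XIII (F13a1), the enzyme that crosslinks fibrin. Against unpurified liver of the same line, these 6 were higher in macrophage nuclei (36.2% of all genes were called higher) and the same 6 were lower in hepatocyte nuclei (21.5% of all genes called lower). C1qb had the largest differences, 4.11 ± 0.18 (log2, SE) in macrophage nuclei and -2.34 ± 0.13 in hepatocyte nuclei, with edgeR adjusted p of 1.5e-21 and 1.5e-18. Its lowest, median and highest CPM were 77.6, 123 and 323 in 32 macrophage libraries, 6.01, 7.56 and 9.37 in the 8 pools of that line and 0.534, 1.14 and 2.08 in 32 hepatocyte libraries. The ranges of these fractions did not overlap.

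C1qc and C1qa followed C1qb. For C1qc the lowest, median and highest values were 19.4, 38.0 and 53.1 CPM in macrophage nuclei and 0.152, 0.680 and 1.35 CPM in hepatocyte nuclei, and for C1qa 18.2, 31.2 and 46.5 CPM and 0.415, 0.747 and 1.27 CPM. The 3 genes lie on the minus strand of chromosome 4 within chr4:136880145-136886177, chr4:136889802-136892914 and chr4:136895916-136898844 (mm10), with gaps of 3624 and 3001 bp between them. The counting rules are unknown here, so reads running from one gene into the next cannot be told apart. C6, which joins C5b at the start of pore assembly, had levels in macrophage nuclei of 444, 745 and 1810.0 CPM (lowest, median, highest) against 12.1, 25.2 and 101 CPM in hepatocyte nuclei. Its macrophage libraries all lay above every hepatocyte library and every pool, the highest pool being at 86.0 CPM, and the lowest macrophage library at 444 CPM. Properdin (Cfp) stood at 93.5, 137 and 187 CPM and 4.08, 8.76 and 16.1 CPM, and F13a1 at 3.64, 11.6 and 26.3 CPM and 0.0637, 0.436 and 1.54 CPM in macrophage and hepatocyte nuclei.

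**Figure D1:**
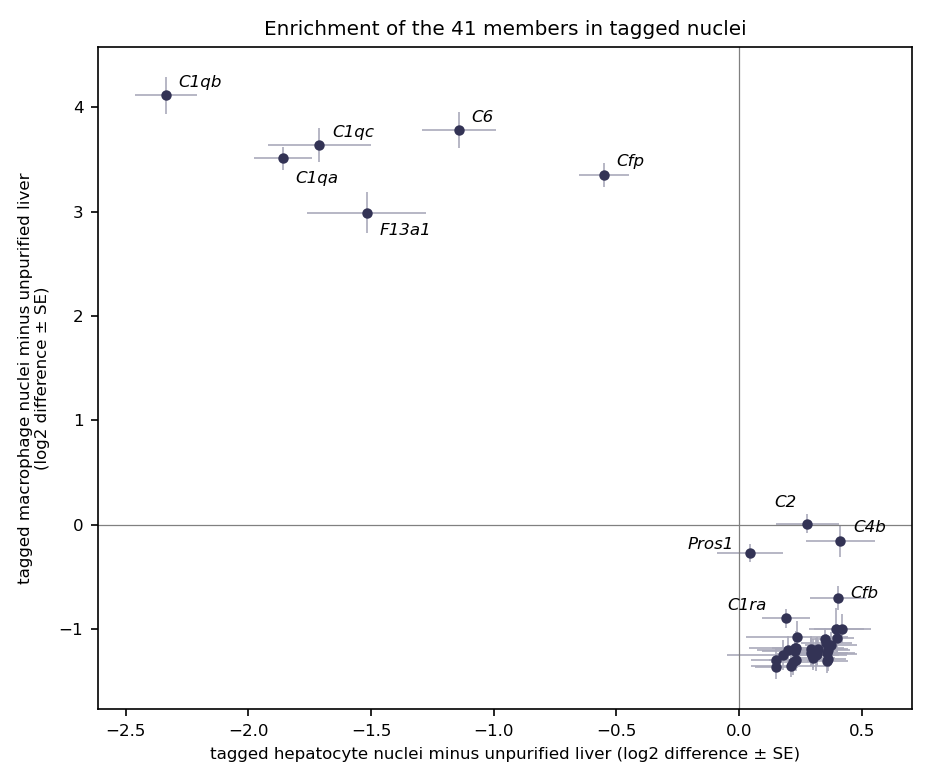
Log2 difference between tagged and unpurified nuclei for the 41 members, hepatocyte nuclei on the horizontal axis and macrophage nuclei on the vertical axis, with SE bars. The 6 macrophage members sit at the upper left, C2 lies at 0.01 on the vertical axis, and most others form a cluster near -1.2.

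Most of the other members were mainly in hepatocyte nuclei. In macrophage nuclei 33 of 41 were lower than in the pools (40.7% of all genes), with a median of -1.19 over the 41 members against -0.05 over all genes, and the 12 hepatocyte markers were all lower with a median of -1.23. The lowest were Serpind1 at -1.36 ± 0.12, Kng1 at -1.35 ± 0.11 and F9 at -1.32 ± 0.12. In hepatocyte nuclei 20 were higher than in the pools (28.8% of all genes), led by Serpinf2 at 0.42 ± 0.12, C4b at 0.41 ± 0.14 and Cfb at 0.40 ± 0.11. The median over all genes was itself 0.12 above the pools, the members' median was 0.29, and 16 rather than 20 were called under RLE scaling. The hepatocyte markers themselves had a median of 0.25, with 2 of 12 called higher. In these bulk libraries fewer nuclei of a type and less RNA per nucleus cannot be told apart.

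Another 5 members were less depleted from macrophage nuclei than the rest. C2, the protease of the classical and lectin C3 convertase, was at 0.01 ± 0.09 (edgeR adjusted p = 0.92) and C4b, which builds that convertase, at -0.15 ± 0.15 (adjusted p = 0.37). Protein S (Pros1), the cofactor of activated protein C, was at -0.27 ± 0.08, factor B (Cfb) at -0.70 ± 0.11 and C1ra at -0.90 ± 0.09, each called lower. C2 held 32.9, 59.3 and 84.4 CPM (lowest, median, highest) in macrophage nuclei and 8.96, 70.7 and 112 CPM in hepatocyte nuclei, so the fractions overlapped. Pros1 held 72.4, 101 and 229.6 CPM and 64.8, 124 and 291 CPM, overlapping as well. C2 and Cfb are neighbours 87 bp apart on chromosome 17, and C4b has the near-identical copy C4a, so their counts may be shared with these genes. The part of endothelial RNA in the levels of these 5 members was not tested.

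In fed mice 34 members were higher in hepatocyte than in macrophage nuclei (42.7% of all genes) and 6 were lower (40% of all genes). The highest were C8g at 1.81 ± 0.17, C8b at 1.68 ± 0.19 and Masp2 at 1.62 ± 0.10, and the lowest C1qb at -6.81 ± 0.16, C1qc at -5.77 ± 0.17 and C1qa at -5.56 ± 0.11. Only Pros1 was not called, at -0.03 ± 0.11 (edgeR adjusted p = 0.81). Cell type, mouse line and library series cannot be told apart here. Between the unpurified pools of both lines 18 members differed (11% of all genes), all lower in the hepatocyte line, from -0.54 for Klkb1 to -0.23 for F2. In the comparison of fed nuclei the smallest of the 34 differences was that of C2, at 0.37.

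In hepatocyte nuclei most of the members that changed under fasting were lower. Rises and falls are against fed libraries of the same time, not against the start of the fast. Of the 41, 28 fell at 1 or more of the 4 times, 5 rose at 1 or more times, F11 did both, and 9 were called at no time. For these counts over the 4 times no matching share of all genes is given, and the shares below are for single times. At 3 h 14 were lower and 5 higher (20.4% and 19.5% of all genes), and at 8 h 23 were lower and 2 higher (20.7% and 18%). At 16 h 16 were lower and 0 higher (8.55% and 9.55%), and at 24 h 20 were lower and 0 higher (12.4% and 11.6%). Median log2 differences over the 41 members were -0.27, -0.89, -0.39 and -0.57 at the 4 times, against -0.03, -0.02, 0.01 and -0.01 over all genes. Beside these, 6 of 12 hepatocyte markers rose and 0 fell at 3 h (median 0.83), 2 rose and 0 fell at 8 h (0.25), 0 rose and 0 fell at 16 h (-0.18), and 2 rose and 1 fell at 24 h (0.02). No member passed an unadjusted p of 0.05 upward at 16 or 24 h by edgeR, and DESeq2 also called 0 upward at both times.

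F7, F10, C1ra, C8g and C9 fell at all 4 times. The 9 members called at no time were Fga, Fgb, F12, F13a1, F13b, Klkb1 and the 3 C1q chains, of which F13a1 and the C1q chains were near or under 1 CPM in hepatocyte nuclei. The count at 16 h rested on single libraries: it was 8 or 9 without fasted library 3 or 4 and 8 to 10 without fed library 1, 2 or 4. It was 7 when the 8 libraries of that time were fitted alone. At 24 h it was 13 without fasted library 1.

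**Figure D2:**
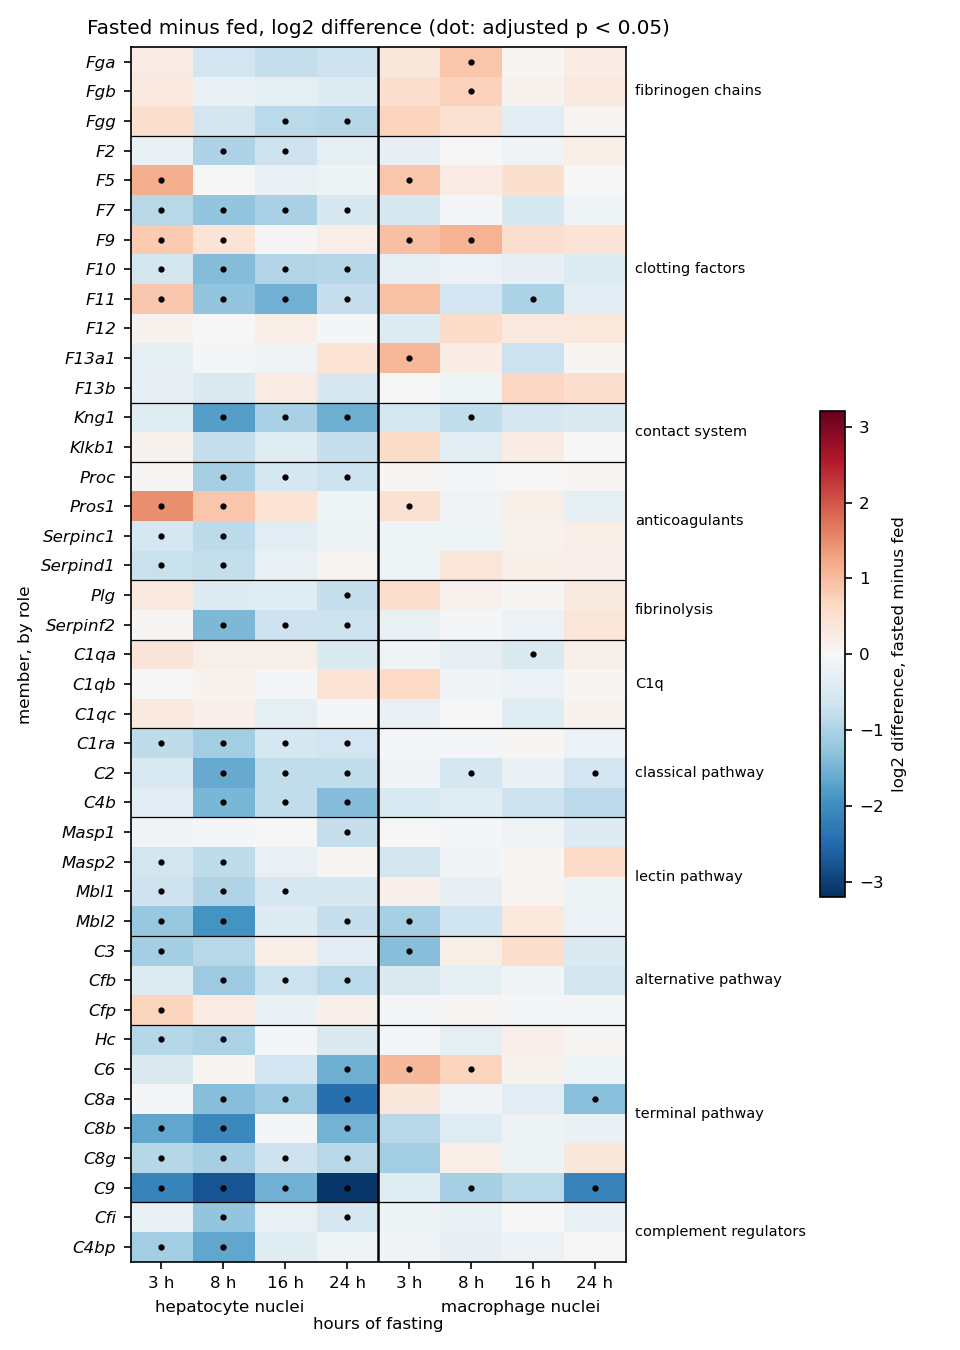
Log2 difference of fasted minus fed nuclei for each member (rows, by role) at 3, 8, 16 and 24 h in hepatocyte nuclei (left) and macrophage nuclei (right), with a dot where the edgeR adjusted p is below 0.05. Blue dominates the hepatocyte columns, while the macrophage columns hold 7, 7, 2 and 3 dots.

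The 3 fibrinogen chains (Fga, Fgb, Fgg), which lie side by side on chromosome 3 with gaps of 11103 and 8687 bp, held 1 called member. Fgg was called, lower at 16 h by a log2 difference of -0.87 ± 0.29 and at 24 h by -0.90 ± 0.29 (edgeR adjusted p = 0.034 and 0.024). Fga was at -0.75 ± 0.27 and -0.66 ± 0.27 at these times and Fgb at -0.31 ± 0.22 and -0.41 ± 0.22, which did not pass. Fgg levels at 24 h were 321, 472, 198 and 233 CPM in fed and 163, 179, 145 and 161 CPM in fasted libraries, without overlap.

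Among the 9 clotting factors, 3 rose and 2 fell at 3 h. Factor V (F5), the cofactor of factor Xa, rose by 1.17 ± 0.17 (edgeR adjusted p = 3.7e-06): fed libraries held 275, 281, 289 and 284 CPM and fasted libraries 612, 687, 578 and 564 CPM. The fed values were nearly identical and all 4 fasted values were far above them. The fasted F5 values at 3 h lay within the fed range of 24 h, which is again zeitgeber time 12, the time of food withdrawal. At 8, 16 and 24 h F5 was at -0.01 ± 0.17, -0.24 ± 0.17 and -0.15 ± 0.17, none called.

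Factor IX (F9), the protease that activates factor X together with factor VIII, rose at 3 h by 0.85 ± 0.17 and at 8 h by 0.45 ± 0.17 (edgeR adjusted p = 0.00019 and 0.034). At 3 h its fed values were 78.1, 59.5, 81.4 and 80.3 CPM and its fasted values 128, 145, 131 and 112 CPM. The groups did not overlap at 3 h, whereas at 8 h fed libraries (54.5 to 71.1 CPM) and fasted libraries (62.2 to 114 CPM) did. The fasted F9 values at 3 h overlapped the fed values of 24 h, the zeitgeber time of food withdrawal.

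Factor XI (F11), which activates factor IX, changed direction. It rose at 3 h by 0.85 ± 0.24 (edgeR adjusted p = 0.0056), from 64.3, 48.4, 61.1 and 72.4 CPM in fed to 97.6, 95.4, 121 and 111 CPM in fasted libraries. It fell at 8 h by a log2 difference of -1.27 ± 0.24, from 101, 84.3, 125 and 73.1 CPM to 34.6, 53.7, 38.7 and 25.1 CPM. The fall was largest at 16 h, -1.54 ± 0.24 (adjusted p = 5.3e-05), when fed libraries held 293, 208, 262 and 246 CPM and fasted libraries 133, 83.9, 49.0 and 77.9 CPM. The groups did not overlap at 3, 8 or 16 h. At 24 h F11 was lower by a log2 difference of -0.74 ± 0.24 (adjusted p = 0.025), with overlap between 84.8 to 164 CPM in fed and 55.0 to 87.6 CPM in fasted libraries. The fasted F11 values at 3 h lay within this fed range of 24 h, the zeitgeber time of food withdrawal.

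Factor VII (F7), which starts coagulation with tissue factor, was lower at all 4 times, by a log2 difference of -0.88 ± 0.16, -1.25 ± 0.16, -1.04 ± 0.16 and -0.51 ± 0.16. At 16 h fed libraries held 142, 124, 112 and 127 CPM and fasted libraries 77.5, 65.7, 43.8 and 56.0 CPM (edgeR adjusted p = 4.4e-05). Fed and fasted F7 values did not overlap at any of the 4 times. Factor X (F10), its neighbour 1502 bp away on chromosome 8, fell by a log2 difference of -0.58 ± 0.20, -1.39 ± 0.20, -0.93 ± 0.20 and -0.91 ± 0.20, and prothrombin (F2) by -0.99 ± 0.12 at 8 h and -0.66 ± 0.12 at 16 h. Factor XII (F12), which starts contact activation, was between -0.05 and 0.21 with SE of 0.13 at all 4 times. The factor XIII carrier subunit F13b was between -0.51 and 0.27, and neither F12 nor F13b was called.

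**Figure D3:**
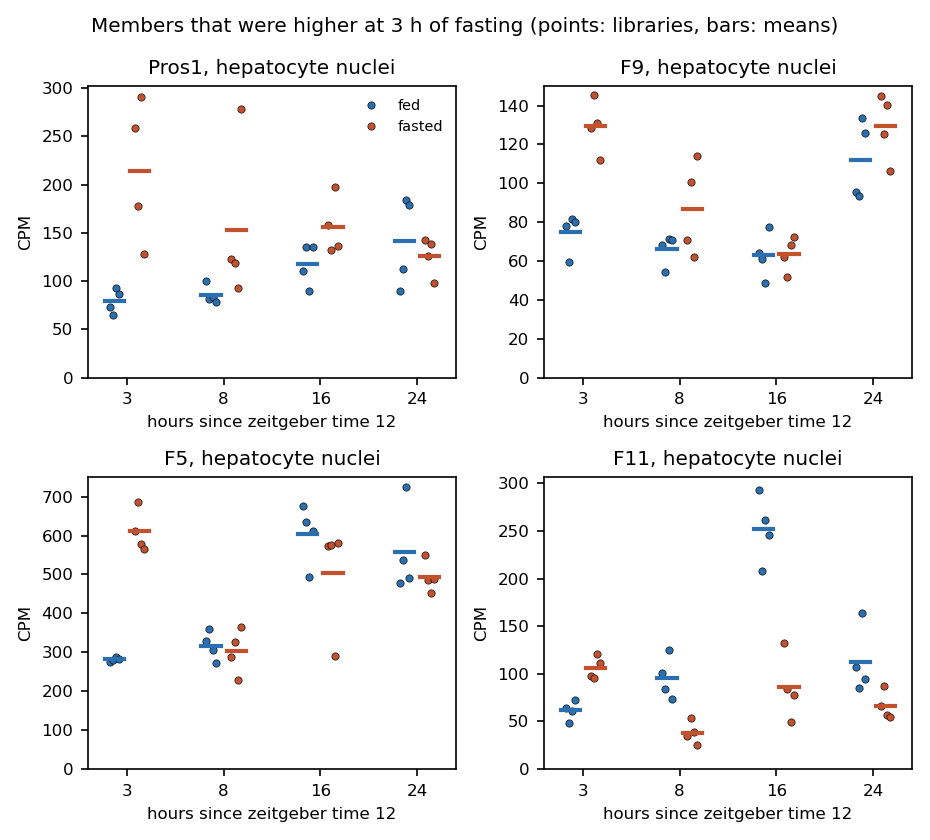
CPM per library of Pros1, F9, F5 and F11 in fed (blue) and fasted (orange) hepatocyte nuclei by hours since zeitgeber time 12, with group means as bars and axes starting at 0. At 3 h the fasted libraries of each gene lie above all fed ones, and F11 reverses from 8 h.

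In the contact system, kininogen (Kng1), the precursor of bradykinin, fell at 8 h by a log2 difference of -1.76 ± 0.32, at 16 h by -1.03 ± 0.31 and at 24 h by -1.56 ± 0.32 (edgeR adjusted p = 7.9e-05, 0.021 and 0.00072). Its values at 8 h were 453, 389, 561 and 600.4 CPM in fed and 189.7, 140.2, 99.8 and 138 CPM in fasted libraries. At 24 h they were 637, 635, 1082 and 672 CPM and 201, 197, 345 and 269 CPM. Fasted values lay below all fed values at both times. Kng1 has the close copy Kng2, with which reads may be shared. Prekallikrein (Klkb1) was at -0.76 ± 0.32 at 8 h and -0.74 ± 0.32 at 24 h, not called.

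The anticoagulants moved apart. Protein S (Pros1) had the largest rise of any member, 1.49 ± 0.27 at 3 h (edgeR adjusted p = 8.9e-05), from 72.9, 64.8, 92.5 and 86.3 CPM in fed to 258, 178, 291 and 128 CPM in fasted libraries, with no overlap. At 8 h it rose by 0.88 ± 0.27, where 1 fasted library at 279 CPM stood above the other 3 at 92.8 to 122 CPM, and fed libraries at 78.4 to 100.3 CPM overlapped them. Protein C (Proc), the protease for which protein S is the cofactor, was at 0.05 ± 0.17 at 3 h and fell by a log2 difference of -1.06 ± 0.17, -0.55 ± 0.17 and -0.68 ± 0.17 at the later times. The thrombin inhibitors antithrombin (Serpinc1) and heparin cofactor II (Serpind1) fell at 3 h, by a log2 difference of -0.55 ± 0.14 and -0.71 ± 0.17, and at 8 h, by -0.84 ± 0.14 and -0.77 ± 0.17. Serpind1 overlaps Pi4ka on the other strand, so without knowledge of strand use their reads cannot be told apart.

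In fibrinolysis, antiplasmin (Serpinf2) fell by a log2 difference of -1.44 ± 0.23 at 8 h, -0.65 ± 0.22 at 16 h and -0.65 ± 0.22 at 24 h. Plasminogen (Plg), the precursor of plasmin, was called at 24 h only, lower by a log2 difference of -0.73 ± 0.17 (edgeR adjusted p = 0.0019).

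All 3 classical pathway members other than C1q fell at 8, 16 and 24 h. C1ra, C2 and C4b were lower at 8 h, by a log2 difference of -1.11 ± 0.20, -1.62 ± 0.26 and -1.46 ± 0.26. They were lower at 16 h by a log2 difference of -0.56, -0.80 and -0.78 and at 24 h by -0.62, -0.79 and -1.38 (log2, each called). At 3 h C1ra alone was called, at -0.82 ± 0.19. C1ra has the copy C1rb, so the same caution on shared reads holds.

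In the lectin pathway, mannose-binding lectin 2 (Mbl2) fell by a log2 difference of -1.22 ± 0.25 at 3 h, -1.92 ± 0.25 at 8 h and -0.73 ± 0.24 at 24 h (edgeR adjusted p = 0.00025, 9.1e-07 and 0.027). Fed values at 3 h were 65.3, 47.7, 74.7 and 81.4 CPM and fasted values 20.1, 50.5, 18.3 and 22.0 CPM. One fasted library, number 2, reached the fed range, and the other 3 lay well below it. At 8 h fed libraries held 76.6, 75.7, 99.7 and 84.3 CPM and fasted libraries 25.3, 22.2, 23.3 and 14.0 CPM, without overlap. Mbl1 fell by a log2 difference of -0.67 ± 0.20, -0.96 ± 0.20 and -0.57 ± 0.20 at 3, 8 and 16 h. The protease Masp2 fell by a log2 difference of -0.59 ± 0.14 at 3 h and -0.82 ± 0.14 at 8 h and overlaps Tardbp on the other strand, and Masp1 fell at 24 h only, by -0.73 ± 0.19.

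In the alternative pathway, C3, the common substrate of all 3 pathways, fell at 3 h by a log2 difference of -1.10 ± 0.41 (edgeR adjusted p = 0.034) and was at -0.89 ± 0.41 at 8 h, not called. Factor B (Cfb), the protease of the alternative convertase, fell at 8, 16 and 24 h by a log2 difference of -1.16 ± 0.22, -0.68 ± 0.22 and -0.86 ± 0.22. Properdin (Cfp), which stabilises that convertase, rose at 3 h by 0.70 ± 0.21 in hepatocyte nuclei, from 8.18, 9.76, 7.35 and 8.08 CPM to 16.1, 7.86, 15.9 and 12.4 CPM. One of the 4 fasted values lay within the fed range. Beside this, 2 of 11 macrophage markers tested rose and 1 fell in these nuclei at 3 h, with sums of 42.7 to 65.8 CPM in fed and 40.8 to 80.4 CPM in fasted libraries, and their part in the Cfp rise was not tested.

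The terminal pathway held the largest falls. C9, the subunit that polymerises into the pore, fell by a log2 difference of -2.13 ± 0.44 at 3 h, -2.75 ± 0.46 at 8 h, -1.55 ± 0.44 at 16 h and -3.10 ± 0.46 at 24 h (edgeR adjusted p = 0.00038, 2.9e-05, 0.014 and 2.7e-05). At 3 h fed libraries held 236, 220.3, 289 and 306 CPM and fasted libraries 29.8, 111, 49.9 and 40.0 CPM. At 8 h the values were 209.7, 146, 247 and 251 CPM and 44.4, 34.4, 28.0 and 13.8 CPM. All fasted values were below all fed values at both times.

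At 16 h C9 stood at 164, 152, 175 and 249 CPM in fed and 97.8, 62.5, 9.13 and 81.2 CPM in fasted libraries. Fasted library 3 was the lowest of all, and the call was lost when the 8 libraries of that time were fitted alone (adjusted p = 0.122). At 24 h the fed values were 193, 191, 218 and 311 CPM and the fasted values 18.7, 25.7, 34.1 and 26.2 CPM. The fasted libraries lay close together and far below the fed ones.

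The 3 chains of C8, which carries C9 into the membrane, differed in time course. C8a, the alpha chain, was at -0.04 ± 0.27 at 3 h and fell by a log2 difference of -1.37 ± 0.28, -1.16 ± 0.27 and -2.42 ± 0.29 at 8, 16 and 24 h. Its values at 16 h were 348, 299, 556 and 437 CPM in fed and 252, 162, 144 and 171 CPM in fasted libraries. At 24 h they were 631, 656, 643 and 698 CPM and 95.9, 129, 156 and 103 CPM (edgeR adjusted p = 9.8e-07), both times without overlap.

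C8b, the beta chain, lies 11131 bp from C8a on chromosome 4 in the opposite orientation. It fell by a log2 difference of -1.66 ± 0.38 at 3 h, -2.07 ± 0.38 at 8 h and -1.51 ± 0.38 at 24 h, and was at -0.03 ± 0.37 at 16 h. At 3 h fed libraries held 54.3, 64.2, 67.9 and 64.8 CPM and fasted libraries 9.25, 41.1, 12.8 and 13.4 CPM. At 8 h they held 127, 62.3, 92.1 and 82.9 CPM and 38.5, 11.8, 20.7 and 11.4 CPM. Neither time had overlap, though fasted library 2 at 3 h was high, as for Mbl2 and C9. C8g, the gamma chain, fell at all 4 times by a log2 difference of -0.90, -1.06, -0.65 and -0.90, and it overlaps Fbxw5 on the other strand.

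C5, encoded by Hc, fell at 3 h by a log2 difference of -0.91 ± 0.22 and at 8 h by -1.02 ± 0.23. C6 fell in hepatocyte nuclei at 24 h by a log2 difference of -1.56 ± 0.30 (edgeR adjusted p = 0.0005), from 42.4, 36.9, 52.3 and 101 CPM in fed to 12.8, 25.6, 18.6 and 20.9 CPM in fasted libraries. One fed library was far above the other 3, and the groups did not overlap. Macrophage markers summed to 37.1 to 55.7 CPM in these fed and 52.8 to 58.4 CPM in these fasted libraries, and their part in the C6 fall was not tested. Of the regulators, which break down C3b and C4b, C4bp fell by a log2 difference of -1.10 ± 0.17 at 3 h and -1.65 ± 0.18 at 8 h, and factor I (Cfi) by -1.27 ± 0.20 at 8 h and -0.57 ± 0.20 at 24 h.

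**Figure D4:**
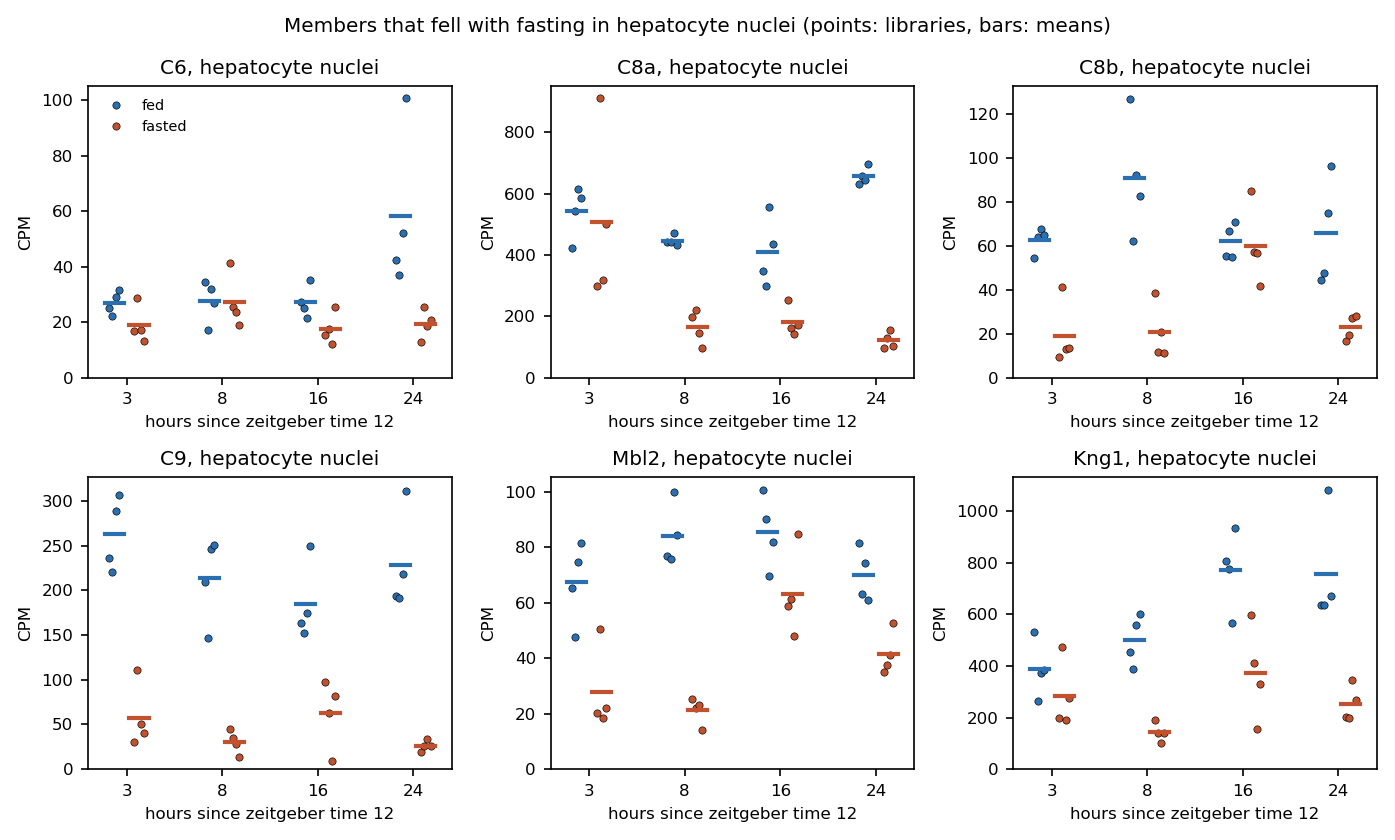
CPM per library of C6, C8a, C8b, C9, Mbl2 and Kng1 in fed (blue) and fasted (orange) hepatocyte nuclei by hours since zeitgeber time 12, with group means as bars and axes starting at 0. C9 is lower in fasted libraries at every time, whereas C8b and Mbl2 were not called at 16 h.

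Between the 4 times, 11 members differed in fed hepatocyte nuclei (30.1% of all genes). F11 was first, with an edgeR adjusted p of 1.5e-06, and its fed libraries rose from 48.4 to 72.4 CPM at 3 h (zeitgeber time 15) to 208 to 293 CPM at 16 h (zeitgeber time 4). F5 (adjusted p = 6.1e-06) held 329, 359.5, 306 and 273 CPM at 8 h, 675, 635, 492 and 611 CPM at 16 h and 479, 536, 724 and 491 CPM at 24 h. Its fed level was thus low at 3 and 8 h and high at 16 and 24 h. F9 (adjusted p = 0.00048) held 68.0, 54.5, 71.1 and 71.0 CPM at 8 h, 63.9, 61.1, 48.9 and 77.7 CPM at 16 h and 95.5, 93.7, 134 and 126 CPM at 24 h, highest at 24 h. The other 8 were C6, C8g, Mbl1, Proc, F13b, Kng1, Pros1 and C4bp.

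The fasting effect itself differed between the 4 times for 20 members in hepatocyte nuclei (32.8% of all genes). The smallest adjusted p-values by edgeR were those of F11 (3.0e-05), C4bp (0.00011), F5 (0.00011) and C8a (0.00038). C9 did not pass (adjusted p = 0.15).

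In macrophage nuclei fewer members were called. At 3 h 5 were higher and 2 lower (7.7% and 4.68% of all genes), at 8 h 4 and 3 (7.44% and 5.4%), at 16 h 0 and 2 (7.72% and 5.99%) and at 24 h 0 and 3 (5.31% and 6.35%). The median over the 41 was between -0.08 and -0.01 at the 4 times, and 26 members were called at no time. For the latter count, too, no matching share of all genes is given. Of the 6 members concentrated in macrophage nuclei, C6 and F13a1 rose at 3 h, C6 rose at 8 h and C1qa fell at 16 h. Upward, 3 members at 16 h and 1 at 24 h passed an unadjusted p of 0.05 by edgeR, and DESeq2 called 0 upward at both times.

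C6 rose at 3 h by 1.03 ± 0.25 (edgeR adjusted p = 0.0072), from 554, 787, 444 and 638 CPM in fed to 842, 916, 1810.0 and 1426 CPM in fasted libraries. All fasted values were above all fed values. Without fasted library 3, the highest, the adjusted p was 0.0671 at a log2 difference of 0.77. At 8 h C6 rose by 0.72 ± 0.24 (adjusted p = 0.0498). Hepatocyte nuclei held at most 101 CPM of C6, below every macrophage library. The 12 macrophage markers summed, in the same order of libraries, to 4967, 7083, 4349.8 and 5698 CPM in fed and 5361, 5473, 7513 and 7182 CPM in fasted macrophage nuclei at 3 h. Within each group the libraries with higher sums also held more C6. Over all 12 markers 1 rose and 1 fell at 3 h, with a median of -0.04, and the part of these sums in the C6 and F13a1 rises was not tested.

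F13a1 rose at 3 h by 1.07 ± 0.28 (edgeR adjusted p = 0.013), from 6.57, 14.2, 6.84 and 9.98 CPM to 16.4, 12.2, 26.3 and 25.2 CPM. One fed and 1 fasted library crossed, and leaving out fasted library 3, fed library 1 or fed library 3 gave adjusted p of 0.0774, 0.0508 and 0.0547. C1qa fell at 16 h by a log2 difference of -0.47 ± 0.14 (adjusted p = 0.027), from 37.8, 31.1, 36.3 and 35.8 CPM to 18.2, 29.2, 28.3 and 24.7 CPM, without overlap. That call was lost without any of fasted libraries 1 and 4 or fed libraries 1, 3 and 4, at adjusted p of 0.0552 to 0.138. Macrophage markers at 16 h summed to 7074, 6335, 4787 and 5649.9 CPM in fed and 4579, 7661, 4838 and 5191 CPM in fasted libraries, with overlap, and their part in the C1qa fall was not tested. C1qb, C1qc and Cfp were called at no time, with Cfp between -0.06 and 0.04 at SE of 0.16.

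**Figure D5:**
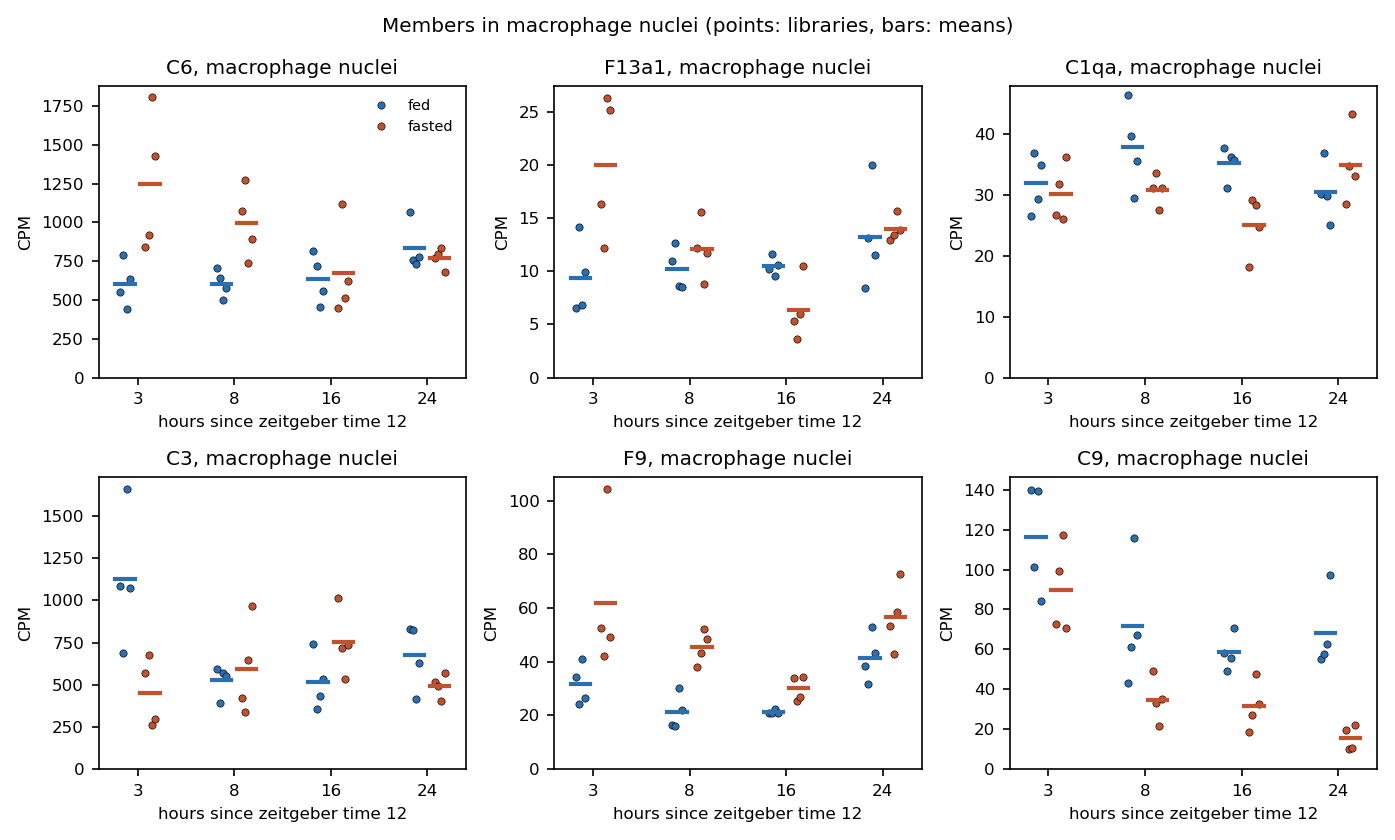
CPM per library of C6, F13a1, C1qa, C3, F9 and C9 in fed (blue) and fasted (orange) macrophage nuclei by hours since zeitgeber time 12, with group means as bars and axes starting at 0. C6 and F13a1 are high in fasted libraries at 3 h, and C9 is lowest in fasted libraries at 24 h.

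The other calls in macrophage nuclei were of members that were higher in fed hepatocyte nuclei, or of Pros1. Beside them, hepatocyte markers rose in these nuclei: 3 of 12 at 3 h (median 0.81), 8 of 12 at 8 h (0.94), 3 at 16 h (0.43) and 1 at 24 h (0.43), and none fell. Their sums were 5751 to 9446 CPM in fed and 10871 to 24044 CPM in fasted libraries at 3 h, and 4320 to 6226 CPM and 9133 to 11123 CPM at 8 h. At 16 h they were 4462 to 6286 CPM and 6560.1 to 8313 CPM, and at 24 h 5761 to 12766 CPM and 10074 to 14549.5 CPM. The highest, 24044 CPM, was fasted library 3 of 3 h. The part of this RNA in the calls that follow was not tested.

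At 3 h F5 rose by 0.89 ± 0.20, F9 by 0.95 ± 0.25 and Pros1 by 0.49 ± 0.16, as these 3 did in hepatocyte nuclei, while C3 fell by a log2 difference of -1.35 ± 0.33 (edgeR adjusted p = 0.0084). C3 held 1083, 687, 1659 and 1072 CPM in fed and 567, 676, 261 and 296 CPM in fasted libraries, with every fasted value below every fed one. Mbl2 fell by a log2 difference of -1.05 ± 0.28 (adjusted p = 0.015), from 28.2, 29.3, 42.0 and 27.5 CPM to 20.5, 20.8, 12.4 and 8.51 CPM, without overlap. Its adjusted p was 0.0620, 0.0526 and 0.0664 without fasted library 3, fasted library 4 or fed library 3. C3 and Mbl2 were lower in hepatocyte nuclei at 3 h as well, by a log2 difference of -1.10 and -1.22. Hepatocyte markers rose in macrophage nuclei at this time, and the part of hepatocyte RNA in these falls was not tested. Of the 7 calls at 3 h, 2 were left without fasted library 3, 4 without fed library 3 and 11 without fasted library 2, and 0 with the 8 libraries fitted alone.

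At 8 h F9 rose by 1.11 ± 0.25 (edgeR adjusted p = 0.0048), from 16.6, 16.1, 30.1 and 22.1 CPM to 38.1, 43.4, 52.0 and 48.6 CPM, without overlap. Fga rose by 0.88 ± 0.25 (adjusted p = 0.019), from 115, 106, 174 and 141 CPM to 199.8, 226, 258 and 302 CPM, and Fgb by 0.75 ± 0.23. The median at 8 h in macrophage nuclei was 0.94 for hepatocyte markers and -0.08 over the 41 members. In hepatocyte nuclei at 8 h F9 was at 0.45, Fga at -0.60 and Fgb at -0.20. C9 fell by a log2 difference of -1.06 ± 0.31 (adjusted p = 0.025), from 43.4, 61.3, 116 and 67.3 CPM to 49.1, 33.1, 21.5 and 34.9 CPM, with overlap of 1 fasted value. Kng1 fell by a log2 difference of -0.78 ± 0.23, from 159.9, 158, 276 and 225 CPM to 147, 131, 85.4 and 118 CPM, without overlap, and C2 fell by -0.57 ± 0.16. The 7 calls at 8 h dropped to 1 or 2 without fasted library 3 or 4, to 4 without fed library 1, 3 or 4 and to 3 without fed library 2. The call of C9 was lost without fasted library 2, 3 or 4 or fed library 3 (adjusted p of 0.0511 to 0.128), that of Fga without fasted library 3 or 4 or fed library 1 or 2 (0.0657 to 0.0790) and that of Kng1 without fasted or fed library 3 or 4 (0.0562 to 0.119).

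At 16 h F11 fell by a log2 difference of -1.02 ± 0.33 (edgeR adjusted p = 0.038), from 84.7, 106, 57.6 and 87.7 CPM to 40.0, 23.2, 54.6 and 43.7 CPM, without overlap. The 2 calls at 16 h, F11 and C1qa, became 0 or 1 when fasted library 1, 2 or 4 or any fed library was left out. The call of F11 was lost without fasted library 1, 2 or 4 or fed library 1, 2 or 4 (adjusted p of 0.0595 to 0.114). At 24 h C9 fell by a log2 difference of -2.15 ± 0.33 (adjusted p = 4.8e-05), from 55.0, 57.6, 62.8 and 97.5 CPM to 19.4, 10.3, 10.7 and 22.3 CPM. C8a fell by a log2 difference of -1.34 ± 0.30 (adjusted p = 0.0029), from 149, 206, 206 and 291 CPM to 78.6, 82.9, 66.0 and 113 CPM. C2 fell by a log2 difference of -0.60 ± 0.16 (adjusted p = 0.012), from 81.6, 73.4, 54.2 and 62.8 CPM to 45.5, 42.7, 49.2 and 43.9 CPM, with adjusted p of 0.0651 without fed library 1. None of these 3 overlapped between fed and fasted libraries, and C9 and C8a also had their largest falls at 24 h in hepatocyte nuclei.

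In fed macrophage nuclei 9 members differed between times (12.8% of all genes), with F11 (edgeR adjusted p = 0.0025), F9 (0.0097) and Kng1 (0.022) first. Fed F11 held 16.0 to 37.4 CPM at 3 h, 31.1 to 67.3 CPM at 8 h, 57.6 to 106 CPM at 16 h and 20.2 to 51.5 CPM at 24 h, highest at 16 h as in hepatocyte nuclei. Fed F9 held 16.1 to 30.1 CPM at 8 h, 20.8 to 22.5 CPM at 16 h and 31.7 to 53.1 CPM at 24 h, highest at 24 h. Fed Kng1 at 16 h held 258 to 326 CPM and at 24 h 114 to 177 CPM. The fasting effect differed between times for C3, F13a1 and F11 (3 of 41, 4.65% of all genes), with adjusted p of 0.04, 0.041 and 0.042.

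The fasting effects of the cell types were compared directly. At 3 h 5 members differed (10.6% of all genes): C9, C6 and C4bp were more negative in hepatocyte nuclei, by a log2 difference of -1.69 ± 0.54, -1.43 ± 0.40 and -0.98 ± 0.29, and Cfp and Pros1 more positive, by 0.78 ± 0.27 and 1.05 ± 0.32. At 8 h 13 were more negative in hepatocyte nuclei and 1 more positive (3.76% and 3.86% of all genes). These 13 were led by C8b at -1.61 ± 0.52, Fga at -1.41 ± 0.37 and C4bp at -1.31 ± 0.30, and the 1 was Pros1 at 1.07 ± 0.32. At 8 h hepatocyte markers had a median of 0.94 in macrophage and 0.25 in hepatocyte nuclei, and their part in these 13 was not tested. At 16 h 0 members were called by edgeR or by DESeq2 (0.535% of all genes), with 1 higher and 2 lower at an unadjusted p of 0.05. At 24 h C6 alone was called (4.05% of all genes), at -1.43 ± 0.40 (edgeR adjusted p = 0.031).

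Unpurified liver, compared over 8 fasted and 8 fed pools with the 4 times averaged, gave 24 members lower and 2 higher in fasting (18.8% and 16.4% of all genes). C9 was lowest at -1.70 ± 0.24, and C8b, Kng1 and C8a came next, with Kng1 at -0.97 ± 0.16 and C8a at -0.92 ± 0.11. The 2 higher were Pros1 at 0.35 ± 0.10 and F9 at 0.29 ± 0.07, both of which also rose early in hepatocyte nuclei.

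Other genes of both cascades were read from lists made for this purpose. Of 31 other coagulation and fibrinolysis genes tested in hepatocyte nuclei, 3 rose and 7 fell at 3 h, 1 and 10 at 8 h, 3 and 6 at 16 h, and 1 and 7 at 24 h. Those falls were 22.6%, 32.3%, 19.4% and 22.6% of the list, against 20.4%, 20.7%, 8.55% and 12.4% of all genes, so the share at 3 h was near that of all genes. Their medians were -0.17, -0.26, -0.01 and -0.30. The protein Z gene Proz and its partner serpin Serpina10 fell at 8 h by a log2 difference of -2.57 ± 0.32 and -2.28 ± 0.23. Cpb2, whose product protects fibrin from plasmin, fell at 8 h by a log2 difference of -1.37 ± 0.13, and Kng2 at 24 h by -1.52 ± 0.21. Of 27 other complement genes tested, 2 rose and 4 fell at 3 h, 2 and 9 at 8 h, 0 and 4 at 16 h, and 5 and 5 at 24 h, with medians of -0.21, -0.23, -0.12 and 0.03. Here the falls were 14.8%, 33.3%, 14.8% and 18.5% of the list, below the share of all genes at 3 h and above it at the later times, and rises were 18.5% at 24 h against 11.6% of all genes. At 8 h C1s2 fell by a log2 difference of -1.84 ± 0.30 and C1s1 by -1.58 ± 0.21.

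In macrophage nuclei, of 34 other coagulation genes tested, 3 rose and 4 fell at 3 h, 3 and 4 at 8 h, 2 and 1 at 16 h, and 3 and 3 at 24 h. The rises were 8.82%, 8.82%, 5.88% and 8.82% of the list, against 7.7%, 7.44%, 7.72% and 5.31% of all genes. The falls were 11.8%, 11.8%, 2.94% and 8.82%, against 4.68%, 5.4%, 5.99% and 6.35%, each share resting on 1 to 4 genes. Urokinase (Plau), a plasminogen activator, fell at 8 h by a log2 difference of -1.45 ± 0.27 and at 24 h by -1.37 ± 0.28, and it was higher in macrophage nuclei than in the pools by 3.21 ± 0.21. Thrombomodulin (Thbd) rose at 3, 8 and 24 h, by 1.42 ± 0.30 at 24 h. The part of endothelial RNA in these libraries in the Thbd rises was not tested. Of 31 other complement genes, 4 rose at 3 h, 1 rose and 2 fell at 8 h, 1 and 1 at 16 h, and 3 rose at 24 h. These rises were 12.9%, 3.23%, 3.23% and 9.68% of the list and the falls 0%, 6.45%, 3.23% and 0%. C5ar1, the receptor of the C5a fragment, rose at 24 h by 1.08 ± 0.20, and ficolin A (Fcna) fell at 16 h by a log2 difference of -1.35 ± 0.31.

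The authors' deposited tables of selected genes list 31 of the members for hepatocyte nuclei and 6 for macrophage nuclei, the latter C1qa, C1qb, C1qc, C6, Cfp and F13a1. For C6 at 3 h the authors' deposited table gives a log2 fold change of 1.04 with an adjusted p of 0.0060, and for F13a1 1.08 with 0.017. At 8 h the authors' deposited table gives C6 an adjusted p of 0.13, where the fit used here gave 0.0498.

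In hepatocyte nuclei 59 of the 124 values in the authors' deposited table passed 0.05 there and in the fit used here, 2 passed in the authors' deposited table alone and 7 in the fit used here alone. The 7, with the adjusted p of the authors' deposited table, were C8g at 16 h (0.184), F7 at 24 h (0.0726), F11 at 24 h (0.0640), F9 at 8 h (0.0676), Mbl1 at 16 h (0.0942) and Serpinf2 at 16 h (0.0783) and 24 h (0.0728). By the authors' deposited table F7 and C8g thus fell at 3 of the 4 times. The 2 were Fga at 16 h (0.0367) and Klkb1 at 8 h (0.0409), both listed above as called at no time.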

How the data were processed

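Nuclear RNA without poly-A selection was sequenced from 64 tagged and 16 unpurified mouse liver libraries. The deposited table holds raw counts per gene, and the build mm10 and the tools STAR (2.4.2a) and DESeq2 (1.24.0) are listed without their roles, per the submitters' processing notes. The counted feature and the use of strand are unknown here. The authors' deposited tables of selected genes hold log2 fold changes and adjusted p-values. Genes were tested with edgeR 4.0.16 in R 4.3.3 (robust quasi-likelihood fit, TMM scaling, filterByExpr with a minimum count of 10 and a minimum total of 15), with Benjamini-Hochberg adjustment over all genes and a threshold of 0.05. The SE is the log2 difference divided by the root of F. Fasting was tested within each cell type over its 32 libraries, with a separate effect at each time. CPM use TMM-scaled totals over all 80 libraries. Members and lists were chosen with earlier results of these data known. All 41 members may be named. Values of every library are given for the 4 largest called changes per fasting comparison with a mean of at least 1 CPM and for the 3 smallest p over fed times, and at most 4 called genes are named per pathway list. Some genes of these lists are counted but not reported by name here. No libraries were identical, and counts of all replicate pairs differed by more than sampling noise (smallest chi-square per degree of freedom 12.4). In data simulated on the 8 h hepatocyte comparison (12783 genes), 73 of 99 genes changed by 1 on the log2 scale and 96 of 100 changed by 2 were recovered. On the 8 h macrophage comparison (13764 genes) these were 67 of 100 and 99 of 100. Unchanged genes called were 8 in the hepatocyte and 14 in the macrophage simulation. All other genes were simulated without change, whereas 38.7% (hepatocyte) and 12.8% (macrophage) of all genes were called in the real 8 h comparisons. Recovery in the real data may therefore differ. Alternatives were RLE scaling, no filter on low counts, DESeq2 1.42.0, the 8 libraries of a time alone and leaving out each library. Promoters are from RefSeq (GRCm38.p6), and gene positions were matched to it on mm10.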

Additional observations from a re-analysis of the deposited data

Results flagged for a closer look

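Of 78 groups of 4 libraries for the named members, 6 held a library apart from the other 3, where chance flags about 1 in 20. A library was flagged where its gap to the nearest value made up most of the range of its group. In fasted hepatocyte nuclei at 3 h, library 2 was high for C8b at 41.1 CPM (next 13.4) and for Mbl2 at 50.5 CPM (next 22.0). In fed hepatocyte nuclei, Kng1 reached 1082 CPM in library 3 at 24 h (next 672), and F9 was low at 59.5 CPM in library 2 at 3 h (next 78.1). In fed macrophage nuclei, library 3 was high for Mbl2 at 3 h, at 42.0 CPM (next 29.3), and for F9 at 16 h, at 22.5 CPM (next 21.0). That F9 gap was small and was flagged because the other 3 libraries lay close together.

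The fasting effect differed between hepatocyte and macrophage nuclei by the interaction test in edgeR. At 3 h 5 of 41 members were called, a share near the 10.6% of all genes. At 8 h 3.76% of all genes were more negative and 3.86% more positive in hepatocyte nuclei, and at 24 h 4.05% of all genes differed. At 3 h the differences (hepatocyte minus macrophage, log2) were -1.69 for C9, -1.43 for C6, -0.98 for C4bp, 0.78 for Cfp and 1.05 for Pros1. At 8 h they were -1.61 for C8b, -1.41 for Fga, -1.31 for C4bp, -1.30 for Serpinf2, -1.21 for Mbl2, -1.13 for F10 and -1.12 for F7. They were -1.09 for Serpind1, -0.99 for C1ra, -0.98 for C2, -0.95 for Cfi, -0.93 for F2, -0.93 for Proc and 1.07 for Pros1 at the same time. At 24 h C6 differed by -1.43.

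The fasting effect also differed between the 4 times for 20 members in hepatocyte nuclei (32.8% of all genes). The adjusted p (edgeR) was 2.96e-05 for F11, 0.000112 for C4bp, 0.000114 for F5, 0.000382 for C8a, 0.00185 for F2, 0.00444 for Masp2, 0.00560 for Proc, 0.00604 for Mbl2, 0.00631 for Plg and 0.00641 for Serpinf2. It was 0.00941 for Pros1, 0.0138 for Cfi, 0.0159 for Serpind1, 0.0170 for C8b, 0.0219 for Fgg, 0.0253 for C6, 0.0351 for Serpinc1, 0.0386 for F9, 0.0437 for C4b and 0.0463 for Hc. In macrophage nuclei, where 4.65% of all genes were called, it was 0.0405 for C3, 0.0407 for F13a1 and 0.0419 for F11.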

How the results depend on the processing

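No call of a named member changed direction under any alternative run. With the 8 libraries of a time alone, 7 members instead of 16 were called in hepatocyte nuclei at 16 h, 0 instead of 7 in macrophage nuclei at 3 h and 6 instead of 3 at 24 h. DESeq2 called 11 instead of 7 in macrophage nuclei at 3 h, 8 instead of 3 for a fasting effect that differed between times there, and 2 instead of 1 for the difference between cell types at 24 h. Without the filter on low counts, that difference at 3 h was called for 3 instead of 5. The causes were not tested. Leaving out 1 library gave 8 to 18 calls in hepatocyte nuclei at 16 h and 13 to 21 at 24 h, and 2 to 11, 1 to 6 and 0 to 3 in macrophage nuclei at 3, 8 and 16 h. Of the named members' alternatives, 460 kept the call and 38 lost it, 37 of them in macrophage nuclei. The 460 include members named as extremes of the comparisons with unpurified liver and between cell types. The pooled count thus does not give the stability of the fasting calls alone. No paired analysis was possible because the labels give no shared replicate numbers and libraries are numbered by accession order. Members near 1 CPM, such as the C1q chains in hepatocyte nuclei, are limited by depth.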
